A study of Mus musculus with 15 samples.

Results

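The 10 genes described here encode parts of the Slit, Robo and netrin guidance pathways: the ligand gene Slit1, the receptor genes Robo1, Robo4, Unc5a and Unc5b, the GTPase-activating protein genes Srgap1, Srgap2 and Srgap3, and the adaptor genes Nck1 and Nck2. They were taken by symbol from the deposited gene table, which lists 16886 genes, and all 10 were found there. RNA sequencing was done on bone macrophages of mice that were wild type (WT) or carried a knockout of ROBO4 (ROBO4_KO) or of VLDLR (VLDLR_KO), the very-low-density lipoprotein receptor. All libraries had the strain label C57BL6J, and M-CSF, which sustains macrophages and their precursors, was given to all cultures at 20 ng/ml over 14 days. Each of the 3 genotypes had 5 libraries, 15 in all. The sample codes have 2 forms, with a digit before the letter B (WT replicates 3 to 5, ROBO4_KO replicates 1 and 2, VLDLR_KO replicates 1 and 2; 7 libraries) or after it (WT replicates 1 and 2, ROBO4_KO replicates 3 to 5, VLDLR_KO replicates 3 to 5; 8 libraries). What the form stands for is not stated in the labels. They also give neither the knockout alleles nor the number of mice, so the p-values below measure only the spread between these libraries, which may be technical.

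Slits are large secreted proteins that bind Robo receptors on the cell surface and were first studied as repellents of growing axons. The cytoplasmic part of Robo receptors recruits Slit-Robo GTPase-activating proteins (srGAPs), which bend membranes, and Nck adaptors, which link receptors to actin assembly. Netrins act through the attractive receptors DCC and neogenin and the repulsive UNC5 receptors. Robo4 is best known from endothelial cells, whose vessels it stabilises, and it lacks part of the Slit-binding region of the other Robo receptors. In leukocytes Slit and netrin signals are known mainly as brakes on migration.

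Robo4 is the member that one of the knockouts targets, and its RNA was close to absent in every genotype, so the stretch upstream of the gene is shown. The reference table of promoters (RefSeq, GRCm38.p6) takes position 37401972 on the forward strand as the start. The stretch chr9:37401722-37401896 runs from 250 to 76 bases before that position and ends where the annotated gene begins, and its 175 bases were:
Robo4: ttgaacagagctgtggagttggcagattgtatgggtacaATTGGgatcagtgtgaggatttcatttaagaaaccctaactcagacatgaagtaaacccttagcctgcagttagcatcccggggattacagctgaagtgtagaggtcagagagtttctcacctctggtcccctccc
The capitals mark the motif CCAAT as it reads on the other strand. That motif, on either strand, was present in 24.1% of 32851 promoters of the same length. The Robo4 stretch held 1 CpG and 47.4% G and C, against medians of 3 CpG and 51.4% over those promoters, and it held no GC box (GGGCGG on either strand, present in 20.2%). Of the 10 members, 9 had an entry in that table. In the corresponding window Srgap1 (26 CpG), Unc5a (12), Nck2 (12), Unc5b (15) and Srgap2 (8) held at least 1 GC box, whereas Robo1 (6) and Srgap3 (3) held none. Nck1 has 2 listed starts, with 15 CpG and a GC box at one and 1 CpG and no GC box at the other.

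Library totals lay between 18132866 and 19005966 estimated counts, and levels are given as CPM (counts per 1000000 counts of the library after TMM scaling), so that 1 count was worth at most 0.0595 CPM. Markers of macrophages were high in every library, and their sum was highest in VLDLR_KO. Over 12 genes that sum was 12494 to 18892 CPM in WT, 14700 to 16686 CPM in ROBO4_KO and 20280 to 39452 CPM in VLDLR_KO. Every VLDLR_KO library thus lay above all others in the sum. Lyz2 alone averaged 11082 CPM over the 15 libraries. Of the 12 genes, 2 were called higher and 3 lower in VLDLR_KO against WT, where 16.8% of all tested genes were called. Of 16 endothelial genes, 12 stayed under 3 CPM in every library, among them Cdh5, Tek, Cldn5 and Pecam1. The other 4 reached more, with Vwf at 67.1 to 207 CPM, Eng at 30.4 to 65 CPM, Kdr at 2.94 to 58.1 CPM and Flt1 at 0.447 to 6.19 CPM. A list of 14 fibroblast and stroma genes summed to 42.4 to 313 CPM in WT, 16.1 to 263 CPM in ROBO4_KO and 7.82 to 36.3 CPM in VLDLR_KO, with its highest values in WT replicate 3 (313 CPM) and ROBO4_KO replicate 2 (263 CPM). Lum was at 0 in 14 of the 15 libraries and Thy1 in 7. Of the 12 stromal genes tested, 0 were called higher and 1 lower in VLDLR_KO against WT, where 9.03% of all tested genes were lower. Immediate-early genes stood high in WT replicates 1 and 2, the only WT libraries with the digit after B, at 3652 and 3991 CPM against 647 to 1307 CPM elsewhere. Vldlr itself had 5 to 36 counts per library in WT, 2 to 38 in ROBO4_KO and 1 to 9 in VLDLR_KO. Those ranges overlap, so at this depth Vldlr does not check the labels.

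Per transcript length, the members fell into a few high genes and a long low tail. Length-scaled levels (FPKM, fragments per kilobase of transcript and 1000000 mapped fragments) averaged 21.3 ± 3.05 for Srgap2, 20.4 ± 1.48 for Nck1 and 6.09 ± 2.48 for Nck2 (SD, n = 15 libraries of all genotypes), which placed them at the 78.9th, 78th and 55.9th percentile of all genes in the table. The next members were Unc5b at 0.763 FPKM, Srgap3 at 0.525 FPKM, Slit1 at 0.345 FPKM and Unc5a at 0.279 FPKM. Srgap1 (0.062 FPKM), Robo1 (0.0613 FPKM) and Robo4 (0.008 FPKM) closed the order. In this order Srgap2 and Nck1 differed by less than their spread, as did each neighbour from Unc5b down to Unc5a and from Srgap1 down to Robo4. Nck1 lay above Nck2 and Nck2 above Unc5b in 15 of 15 libraries, with no overlap of their ranges. As a statement of which genes were expressed at all, Srgap2, Srgap3, Nck1, Nck2 and Unc5b had at least 10 counts in every library, Slit1 in 12, Unc5a in 10, Srgap1 in 6, Robo1 in 3 and Robo4 in none. A filter on low counts kept 8 of the 10 members among 11668 genes tested, and Robo1 and Robo4 did not pass it.

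**Figure D1:**
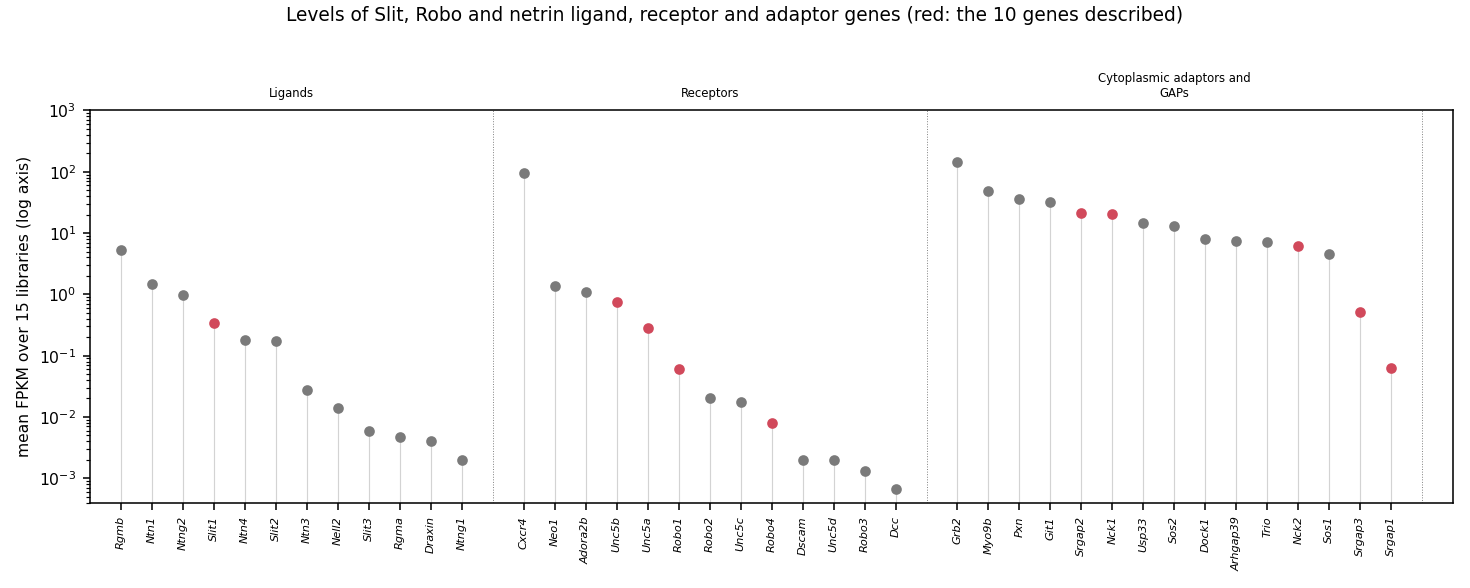
Mean FPKM over the 15 libraries (vertical log axis) of 40 listed pathway genes of the 3 roles that hold members (ligands, receptors, cytoplasmic adaptors and GAPs), with the 10 members in red. Members span from Robo4 at 0.008 FPKM to Srgap2 at 21.3 FPKM, and Srgap2 and Nck1 are the highest of them.

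Slit1 (Entrez 20562; chromosome 19, 41596530 to 41747540, GRCm38.p6), the one ligand among the members, had several CPM in every WT library and fell in VLDLR_KO. Its levels in WT replicates 1 to 5 were 3.52, 3.88, 4.79, 4.6 and 4.53 CPM. The ROBO4_KO replicates had 3.52, 4.45, 0.833, 1.36 and 1.64 CPM, and the VLDLR_KO replicates 1.25, 1.37, 0.211, 0.112 and 0.318 CPM. No VLDLR_KO library reached the lowest WT library, whereas ROBO4_KO split into a pair near WT, both with the digit before B, and a low trio with the digit after it. Within each code form every ROBO4_KO library lay below every WT library. Between VLDLR_KO and WT the fitted log2 fold change, with the code form as a covariate, was -2.77 ± 0.37 (SE, 6.83-fold lower; adjusted p = 1.24e-04). Among the WT and ROBO4_KO libraries Slit1 also went with the stromal sum, whose part was not tested. In bulk RNA, fewer cells that express a gene and less RNA per cell cannot be told apart. Slit1 differed from WT by -0.84 ± 0.33 in ROBO4_KO, which did not pass (adjusted p = 0.606), and VLDLR_KO lay -1.93 ± 0.38 below ROBO4_KO (adjusted p = 0.00291, but 0.0733 without the code form in the model). Of the other Slit genes, Slit2 had 8.17 CPM in WT replicate 3, 5.8 CPM in ROBO4_KO replicate 2 and 0.106 to 2.54 CPM elsewhere, and Slit3 had 9 counts in all 15 libraries together.

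**Figure D2:**
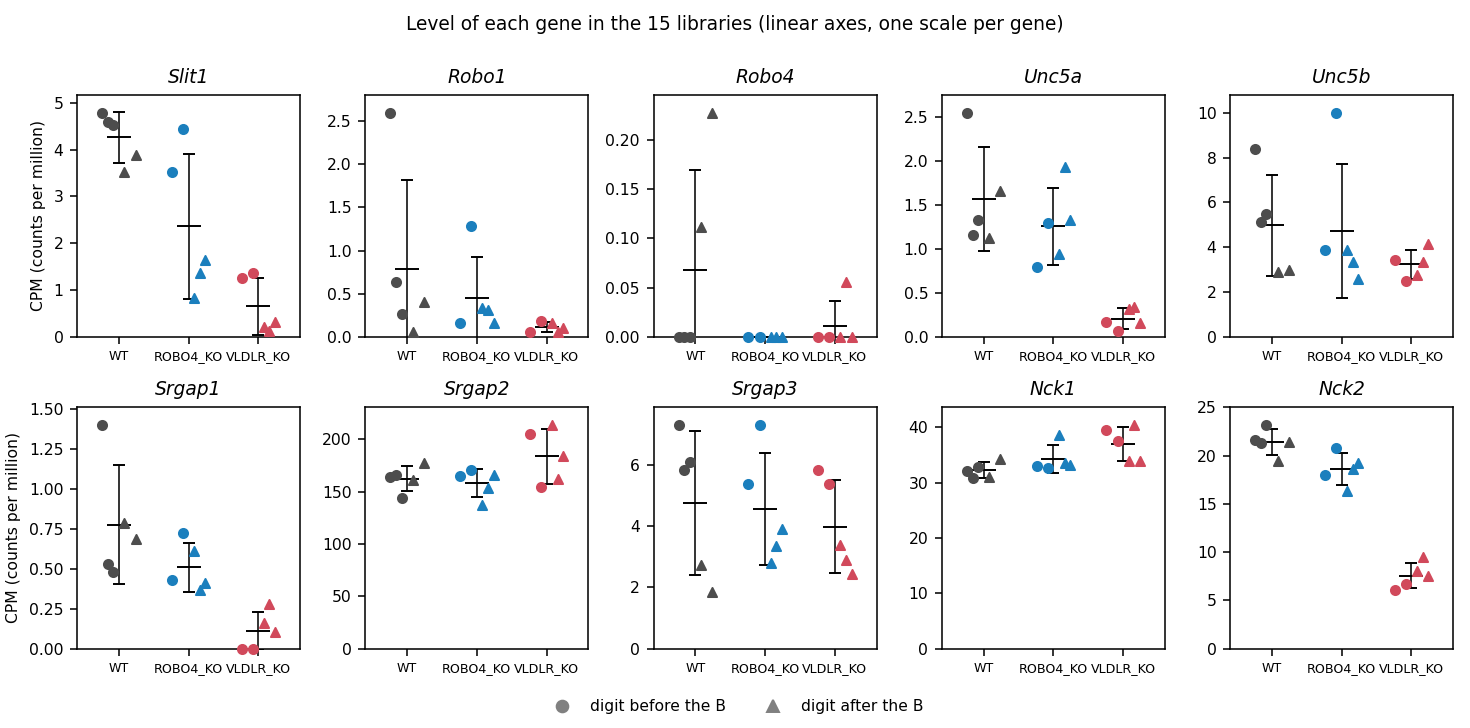
CPM of each member in every library (vertical linear axes from 0, a scale for each gene), by genotype, with circles for codes with the digit before the B and triangles for the digit after it. Horizontal marks are means and bars are SD over 5 libraries. Nck2, Unc5a and Slit1 are low in all VLDLR_KO libraries, and Slit1 and Srgap3 do not overlap between the code forms in any of the 3 genotypes.

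Robo4 (Entrez 74144; chromosome 9, 37401897 to 37414023) had 7 counts in the whole series. WT replicates 1 and 2 had 2 and 4 counts and VLDLR_KO replicate 4 had 1, and each of these has the digit after B. Every ROBO4_KO library had 0. Taken as an upper 95% limit alone, 0 of 93971790 counts allows up to 3 counts over the group, or 0.0316 CPM after TMM scaling. Exact Poisson 95% intervals, with limits on both sides, were 0 to 3.69 counts for ROBO4_KO and 2.2 to 13.1 for the WT total of 6. These intervals cover counting error only, and they overlap. With no filter on low counts the ROBO4_KO difference from WT in edgeR was -3.85 ± 1.38 (unadjusted p = 0.0215) and did not pass (adjusted p = 0.761). WT replicates 3 to 5 also had 0, so at this depth the counts of Robo4 do not check the ROBO4_KO labels.

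Robo1 (Entrez 19876; chromosome 16, 72027551 to 73047491), the receptor that pairs with Slits in many tissues, was low and followed individual libraries. Counts were 1, 7, 50, 12 and 5 in WT, 3, 25, 6, 6 and 3 in ROBO4_KO and 1, 3, 3, 1 and 2 in VLDLR_KO. WT replicate 3 (2.6 CPM) and ROBO4_KO replicate 2 (1.29 CPM) stood far above the others, and no VLDLR_KO library exceeded 0.178 CPM. With no filter on low counts the VLDLR_KO difference from WT was -2.25 ± 0.83 and did not pass (adjusted p = 0.0923). Robo2 had at most 10 counts in a library and Robo3 had 1 count in all.

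Unc5a (Entrez 107448; chromosome 13, 54949411 to 55006018), a netrin receptor also known as a dependence receptor, was lower in VLDLR_KO than in either other genotype. Its WT libraries had 1.12, 1.66, 2.55, 1.16 and 1.33 CPM, the ROBO4_KO libraries 0.799, 1.29, 0.944, 1.93 and 1.33 CPM and the VLDLR_KO libraries 0.163, 0.0595, 0.317, 0.335 and 0.159 CPM. The highest VLDLR_KO library was below the lowest of the other genotypes, although these levels rest on 1 to 6 counts per VLDLR_KO library. The difference from WT was -2.95 ± 0.41 (7.74-fold lower; adjusted p = 1.80e-04) and that from ROBO4_KO -2.57 ± 0.41 (adjusted p = 5.56e-04).

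Unc5b (Entrez 107449; chromosome 10, 60762593 to 60831598), the UNC5 receptor known from vessel tips and from macrophage retention, did not differ detectably between genotypes. It had 2.91, 2.97, 8.38, 5.13 and 5.49 CPM in WT, 3.89, 10, 3.89, 3.34 and 2.56 CPM in ROBO4_KO and 2.5 to 4.13 CPM in VLDLR_KO. Over all libraries the groups overlapped, with WT replicate 3 and ROBO4_KO replicate 2 on top. VLDLR_KO differed from WT by -0.36 ± 0.32 (adjusted p = 0.466). Among codes with the digit before B, WT at 5.13 to 8.38 CPM and VLDLR_KO at 2.5 to 3.42 CPM did not overlap, and the difference of -1.09 ± 0.44 did not pass (adjusted p = 0.113). Among the remaining codes the difference was 0.21 ± 0.25 (adjusted p = 0.573). Of the summed FPKM of Unc5a and Unc5b, Unc5a made up 33.9 ± 8.32% in WT, 32.3 ± 13.4% in ROBO4_KO and 9.25 ± 4.91% in VLDLR_KO (SD, n = 5 each).

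The 3 srGAP genes differed from each other in level and in pattern. Srgap2 (Entrez 14270; chromosome 1, 131285251 to 131527361) was the abundant one, with 144 to 177 CPM in WT, 137 to 171 CPM in ROBO4_KO and 154 to 214 CPM in VLDLR_KO. Its groups overlapped, and the VLDLR_KO difference from WT was 0.18 ± 0.10 (adjusted p = 0.246). Srgap1 (Entrez 117600; chromosome 10, 121780991 to 122047315) was rare. It had 14, 12, 27, 10 and 9 counts in WT, 8, 14, 11, 7 and 8 in ROBO4_KO and 0, 0, 3, 5 and 2 in VLDLR_KO. All VLDLR_KO libraries lay below all others, and the difference was -2.80 ± 0.61 from WT (adjusted p = 0.0057) and -2.16 ± 0.62 from ROBO4_KO (adjusted p = 0.0277). The second of these calls was lost in 7 of 24 alternatives: without ROBO4_KO replicate 2 (-1.96, adjusted p = 0.0689), ROBO4_KO replicate 3 (-2.10, 0.0601) or VLDLR_KO replicate 5 (-2.14, 0.0593), with the digit after B alone (-1.32, 0.0975), with limma (0.0792), without the code form (0.0524) and with a replicate block (0.092). These fitted values rest on 10 counts in all VLDLR_KO libraries together.

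Srgap3 (Entrez 259302; chromosome 6, 112717971 to 112949330) followed the sample code and not the genotype. With the digit before B it had 5.35 to 7.3 CPM (6.15 ± 0.823, n = 7), and with the digit after B 1.83 to 3.89 CPM (2.91 ± 0.634, n = 8), with no overlap between the 2 sets. VLDLR_KO differed from WT by 0.03 ± 0.18 (adjusted p = 0.922) and ROBO4_KO by 0.22 ± 0.18.

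The adaptor genes, which encode near-relatives with the same domains, parted company in VLDLR_KO. Nck2 (Entrez 17974; chromosome 1, 43445751 to 43570518) had 19.4, 21.4, 21.6, 21.3 and 23.2 CPM in WT and 18, 20.8, 16.3, 18.6 and 19.2 CPM in ROBO4_KO. The VLDLR_KO libraries had 6.09, 6.66, 8.03, 9.54 and 7.52 CPM, all below the lowest of the other 10. The fitted difference from WT was -1.51 ± 0.12 (2.85-fold lower; adjusted p = 7.48e-07) and that from ROBO4_KO -1.30 ± 0.12 (adjusted p = 2.63e-06). Nck1 (Entrez 17973; chromosome 9, 100486002 to 100546134) had 30.8 to 34.3 CPM in WT, 32.7 to 38.7 CPM in ROBO4_KO and 33.9 to 40.5 CPM in VLDLR_KO, and its difference from WT of 0.20 ± 0.08 in VLDLR_KO did not pass (adjusted p = 0.0855). Nck2 accounted for 30 ± 1.01% of the summed FPKM of the pair in WT, 26.1 ± 2.87% in ROBO4_KO and 11.8 ± 2.09% in VLDLR_KO (SD, n = 5 each).

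Set against all genes, VLDLR_KO differed from WT in many places. Of the 8 members tested, 4 fell in VLDLR_KO (Nck2, Slit1, Unc5a and Srgap1) and none rose. Over the 11668 genes tested 16.8% were called in either direction and 9.03% were lower. The median log2 fold change was -0.94 over the 8 members and 0.02 over all tested genes. The members were chosen with earlier results of these data known, so these contrasts are no test of the set. The CPM of VLDLR_KO and WT did not overlap for these same 4 members, against 9.43% of all tested genes. The VLDLR_KO libraries were also those with the highest macrophage marker sum. They lay below every WT library in the stromal sum, although 1 of 12 tested stromal genes was called lower there (9.03% of all tested genes were). The part of either sum in these differences was not tested. Without WT replicate 3 and ROBO4_KO replicate 2, the libraries highest in stromal genes (left out after the data were seen), the differences from WT were -1.51 for Nck2, -2.73 for Unc5a and -2.85 for Slit1, each still called, while Srgap1 failed the filter on low counts and was not tested. Without WT replicates 1 and 2, the libraries high in immediate-early genes, all 4 were called, with Slit1 at -2.05.

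Against ROBO4_KO, VLDLR_KO was lower for the same 4 members and higher for none. Over all tested genes 16.0% were called in that comparison and 8.44% were lower. The median log2 fold change was -0.86 over the members and 0.02 over all tested genes, with the same limit from how the members were chosen. Groups did not overlap for Srgap1, Nck2 and Unc5a (8.39% of all tested genes), whereas the lowest ROBO4_KO library for Slit1, at 0.833 CPM, lay below the highest VLDLR_KO library, at 1.37 CPM. Both comparisons share the VLDLR_KO libraries.

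**Figure D3:**
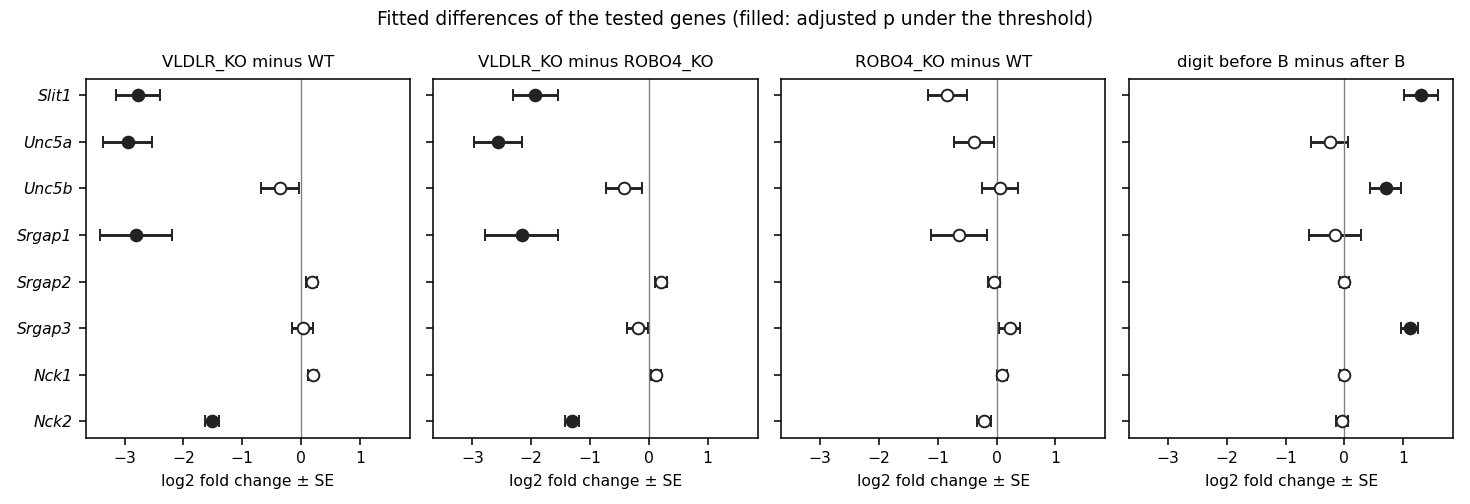
Fitted log2 fold change of the 8 tested members (horizontal axis, bars are SE) in each genotype comparison and between the code forms, with filled points where the adjusted p was under 0.05. Nck2, Srgap1, Unc5a and Slit1 lie to the left of 0 in both VLDLR_KO comparisons, no point is filled for ROBO4_KO against WT, and Slit1, Srgap3 and Unc5b are filled for the code form.

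Between ROBO4_KO and WT no member passed the test. Of the 8 tested members, 0 were called by edgeR, where 0.643% of all genes were called, and 0 by DESeq2, where 1.47% were. Slit1 had an unadjusted p of 0.0233, the only one of the 8 under 0.05 (715 of all 11668 tested genes were). Its difference was -0.22 ± 0.21 with the digit before B and -1.53 ± 0.33 with the digit after B (adjusted p = 0.0707), and it was -0.01 ± 0.63 without WT replicates 1 and 2. The remaining members ranged from -0.64 ± 0.48 (Srgap1) to 0.22 ± 0.18 (Srgap3).

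The form of the sample code went with 3 of the members. Srgap3, Slit1 and Unc5b were higher with the digit before B and none was lower, where 38.1% of all tested genes were called and 19.3% were higher. Srgap3 differed by 1.11 ± 0.15 (2.16-fold; adjusted p = 6.83e-05), Slit1 by 1.31 ± 0.29 (2.49-fold; adjusted p = 0.00255) and Unc5b by 0.70 ± 0.26 (1.62-fold; adjusted p = 0.0484). Nck1, Nck2, Srgap1, Srgap2 and Unc5a lay between -0.25 and 0.00 and did not pass. The Unc5b call was lost in 14 of 20 alternatives, among them leaving out any 1 WT library, and was weakest without WT replicate 3 and ROBO4_KO replicate 2 (0.28, adjusted p = 0.303).

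The difference between VLDLR_KO and WT depended on the code form for Slit1, the only member of the 8 for which this interaction passed (15.2% of all tested genes did). Where the digit precedes B, Slit1 averaged 4.64 ± 0.133 CPM over 3 WT libraries (SD) against 1.31 ± 0.0832 CPM over 2 VLDLR_KO libraries, a log2 difference of -1.81 ± 0.24. Where it follows B, the WT mean was 3.7 ± 0.254 CPM (n = 2), that of VLDLR_KO was 0.214 ± 0.103 CPM (n = 3) and the difference was -4.06 ± 0.40. The first minus the second was 2.24 ± 0.47 in the joint fit (adjusted p = 0.00933), and 0.69 with limma on FPKM, which did not pass (adjusted p = 0.178). The WT libraries with the digit after B are the pair high in immediate-early genes, whose part in this result was not tested. For Nck2 the VLDLR_KO difference was -1.78 and -1.29 in the respective forms, and the interaction of -0.50 ± 0.19 did not pass (adjusted p = 0.0883). Between ROBO4_KO and WT the interaction passed for 0 of 8 members in edgeR and in DESeq2. Over all tested genes it passed for 0.403% in edgeR and 0.754% in DESeq2. Slit1, at 1.31 ± 0.39, was the 1 member with an unadjusted p under 0.05 (0.00555; adjusted p = 0.424). Of all 11668 tested genes 599 had an unadjusted p under 0.05 for this interaction in edgeR.

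Robo1 and Unc5b were highest in the libraries with the most stromal RNA. WT replicate 3 had 313 CPM of stromal genes, 2.6 CPM of Robo1 and 8.38 CPM of Unc5b, and ROBO4_KO replicate 2 had 263, 1.29 and 10 CPM. Srgap3 was also highest in these libraries, at 7.29 CPM in WT replicate 3 and 7.3 CPM in ROBO4_KO replicate 2. Slit1 (4.79 CPM), Srgap1 (1.4 CPM) and Unc5a (2.55 CPM) peaked in WT replicate 3. The part of stromal RNA in the levels of Robo1, Unc5b, Srgap3, Srgap1 and Unc5a was not tested. Slit1 also went with the stromal sum among the WT and ROBO4_KO libraries. It had 0.833 to 1.64 CPM in the 3 libraries with stromal sums of 16.1 to 22.7 CPM, 3.52 to 3.88 CPM in the 3 with sums of 42.4 to 52.1 CPM and 4.45 to 4.79 CPM in the 4 with sums of 98 CPM or more. In VLDLR_KO replicates 1 and 2, with the digit before B, stromal sums of 7.82 and 31.7 CPM stood beside 1.25 and 1.37 CPM of Slit1. The VLDLR_KO libraries with the digit after B had sums of 25.3 to 36.3 CPM and 0.112 to 0.318 CPM of Slit1. The part of stromal RNA in Slit1 was not tested either.

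**Figure D4:**
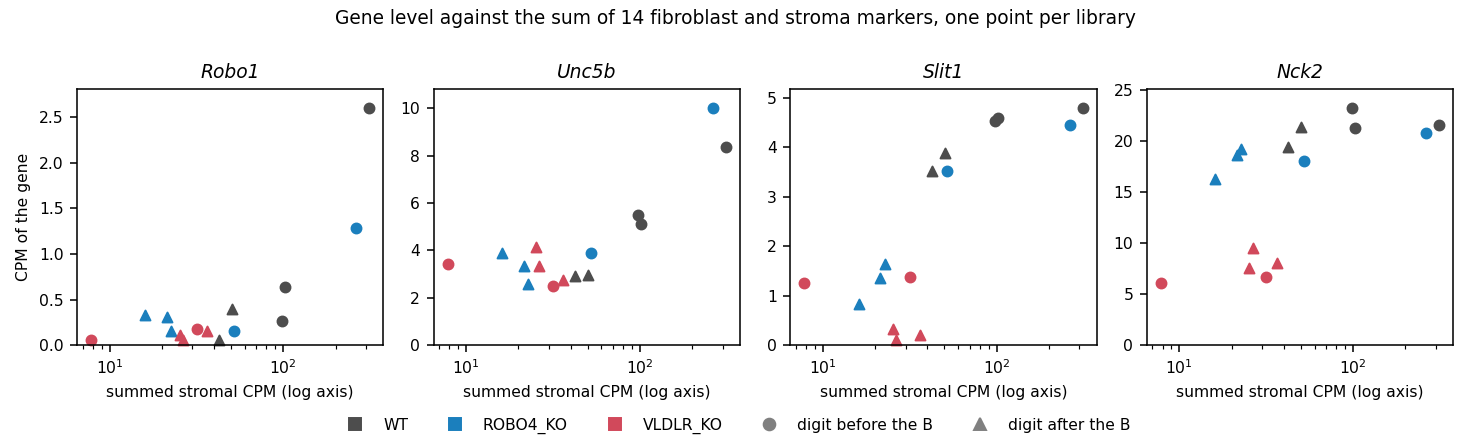
Summed CPM of 14 fibroblast and stroma genes in each library (horizontal log axis) against the CPM of members (vertical axis), coloured by genotype, with circles for the digit before the B and triangles for the digit after it. WT replicate 3 and ROBO4_KO replicate 2 lie at the right, at 313 and 263 CPM, and hold the highest Robo1 and Unc5b values, while Nck2 is at 6.09 to 9.54 CPM in the VLDLR_KO libraries.

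The authors' deposited table compares genotypes within each code form. In it VLDLR_KO differed from WT for 5 of 9 members with a q-value among codes with the digit before B (Slit1, Srgap1, Nck2, Unc5a and Unc5b), where 2326 of 15536 genes with a q-value (15%) were called. With the digit after B it differed for 3 of 10 in the authors' deposited table (Slit1, Nck2 and Unc5a), where 12.2% of all genes were called. The authors' deposited table has a q of 0.0348 for Unc5b in the first of these, a gene not called in the joint fit. For ROBO4_KO against WT the authors' deposited table lists 1 member, Slit1 with the digit after B, at a log2 fold change of -1.53 and a q of 0.0269. It called 2.30% of all genes there, and 0 of 9 members and 1.41% of all genes with the digit before B. The value computed here from the same libraries was also -1.53, with an adjusted p of 0.0707. For VLDLR_KO against ROBO4_KO with the digit before B, the authors' deposited table has a DESeq2 q of 1.50e-04 for Nck2. Slit1 (0.104), Srgap1 (0.115) and Unc5a (0.17) did not pass there. With the digit after B, Nck2 (6.75e-09), Slit1 (0.00409) and Unc5a (0.00425) passed in the authors' deposited table, and Srgap1 (0.434) did not. The share of all genes called between VLDLR_KO and ROBO4_KO there is not given here, so these q-values stand as single values.

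Among isoforms, 26 transcripts were listed for the 10 members and 15 passed the filter on low counts. The sole Nck2 isoform fell in VLDLR_KO against WT by 1.52 on the log2 scale (adjusted p = 2.05e-05), as did a predicted Slit1 isoform that held 89.5% of the gene's counts (-2.75 ± 0.50; adjusted p = 0.00707, but 0.0775 without the code form). Over all tested transcripts 3.33% were called in that comparison. Against ROBO4_KO the same 2 isoforms were called, at -1.32 and -1.96 (adjusted p = 5.98e-05 and 0.0465; 3.27% of all tested transcripts). The Slit1 isoform held this call in only 2 of 17 alternatives, those without WT replicate 2 and without VLDLR_KO replicate 2, and its adjusted p ran from 0.0365 to 0.269 over all 17. Between ROBO4_KO and WT 0 of 15 were called in edgeR, and 0 had an unadjusted p under 0.05 (0.110% of all tested transcripts were called). Nearly all Unc5a counts of a library went to one of its 2 isoforms, the curated one in WT replicates 3 and 4 and ROBO4_KO replicates 3, 4 and 5, and the predicted one in the other 10 libraries, and neither isoform was called in a genotype comparison.

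Of 67 further genes of the Slit, Robo and netrin pathways, 48 were tested. In VLDLR_KO against WT 3 rose and 5 fell, or 16.7% of the 48, close to the 16.8% of all tested genes, so the list as a whole did not stand out and the genes below are given as single values. Neo1, which encodes the netrin and RGM receptor neogenin, rose from 4.57 ± 1.43 to 18.6 ± 6.88 CPM (2.11 ± 0.33; adjusted p = 4.31e-04). Dapk1, a death-associated kinase that acts below UNC5 receptors, rose from 64.5 ± 8.33 to 189 ± 35.6 CPM (1.51 ± 0.13; adjusted p = 1.53e-06). These calls of Neo1 and Dapk1 held in all 25 alternatives. Vasp, an actin-assembly factor, differed by 0.42 ± 0.12 (adjusted p = 0.0227), and this call was lost in 7 of 25 alternatives. Its difference depended on the code form (0.69 ± 0.13; adjusted p = 0.00596), with means of 68.3 CPM in WT and 117 CPM in VLDLR_KO where the digit precedes B and 67 and 70.9 CPM where it follows. Leaving out WT replicate 4 (0.36, adjusted p = 0.057), WT replicate 5 (0.40, 0.0518) or VLDLR_KO replicate 1 (0.37, 0.0561) was enough to lose it. The kinase gene Abl2 fell from 69.4 ± 11.4 to 45.2 ± 12.7 CPM (-0.70 ± 0.15; adjusted p = 0.00478). The syndecan genes Sdc2, Sdc3 and Sdc4, whose products are heparan sulfate proteoglycans, and Evl made up the other 4 that fell. Of these, Evl (-0.49 ± 0.14) lost its call in 10 of 25 alternatives, among them each code form alone and leaving out WT replicate 2 (adjusted p = 0.0713), WT replicate 5 (0.0511), VLDLR_KO replicate 1 (0.0585) or VLDLR_KO replicate 5 (0.0534). Sdc4 (-0.76 ± 0.19) was at -0.25 with the digit before B alone (adjusted p = 0.401) and at -1.28 with the digit after it, where it was called. That dependence of Sdc4 on the form passed (1.02 ± 0.26; adjusted p = 0.0235) but was lost in 7 of 20 alternatives. With the digit after B alone, Sdc2 (-1.38, adjusted p = 0.0723) and Sdc3 (-0.17, 0.279) were not called. The ranges of Neo1 did not overlap, with WT at 3.6 to 7.08 CPM and VLDLR_KO at 11.1 to 26.6 CPM, and nor did those of Dapk1.

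Against ROBO4_KO, 4 of the 48 were higher in VLDLR_KO (among them Dapk1 1.09, Neo1 1.72 and Vasp 0.46) and 4 were lower, with Sdc2 at -3.07 ± 0.59 (adjusted p = 0.00271), against 16.0% of all tested genes called. With the digit before B alone, Neo1 (0.91, adjusted p = 0.13) and Dapk1 (0.86, 0.0525) lost this call. Vasp lost it without the code form (0.0612), with the replicate block (0.0798) and without WT replicate 3 and ROBO4_KO replicate 2 together (0.0642). Between ROBO4_KO and WT 0 of the 48 were called by edgeR and 0 by DESeq2, and 2 had an unadjusted p under 0.05. Over all tested genes 0.643% were called by edgeR and 1.47% by DESeq2, and 715 of 11668 had an unadjusted p under 0.05 in edgeR. The code form went with 27 of the 48 (56.2%, against 38.1% of all tested genes), of which 10 were higher with the digit before B (among them Sdc4, Rgmb and Fyn) and 17 lower (among them Evl, Adora2b, Sdc1 and Ptk2).

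Cxcr4, the chemokine receptor whose signalling Slit and Robo are known to dampen, differed in opposite directions in the 2 code forms. Where the digit precedes B it averaged 160 ± 17.1 CPM in WT, 195 ± 25.1 CPM in ROBO4_KO and 465 ± 16.7 CPM in VLDLR_KO. Where it follows B the means were 115 ± 20.5, 68.6 ± 7.82 and 39.7 ± 2.02 CPM in that order. The VLDLR_KO difference from WT changed by 3.07 ± 0.19 between the forms (adjusted p = 1.45e-06) and that of ROBO4_KO by 1.03 ± 0.19 (adjusted p = 0.0308). The second of these was lost in 10 of 20 alternatives, with limma (0.0638), without WT replicate 3 and ROBO4_KO replicate 2 together (0.134) and without any 1 of WT replicates 2, 3 and 4, ROBO4_KO replicates 1, 3 and 5 and VLDLR_KO replicates 3 and 5 (up to 0.302). Ntn1, which encodes netrin-1, averaged 17.1 ± 3.5 CPM in WT against 4.96 ± 0.556 CPM in VLDLR_KO with the digit before B, and 4.66 ± 0.507 and 5.06 ± 1.79 CPM with the digit after it (-1.90 ± 0.40; adjusted p = 0.0086). Most other ligand and receptor genes were near 0: over the 15 libraries Dcc had 1 count, Unc5d 3, Dscam 5 and Unc5c 42.

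The genes most like each member over the 15 libraries were found by Pearson's r of log2 CPM, which reflects genotype and code form together. Nck2 was most like Zfp40 and Iqck (r = 0.98 for both), Slit1 like Mxd1 (0.96) and Entpd1 (0.94), and Srgap1 like Synj2 and Mmp13 (0.95 for both). Srgap3 was most like Fbxl4 and Lama3 (0.95 for both), Unc5b like Ddr1 (0.93) and Phldb2 (0.90), Srgap2 like Pag1 and Hnrnph1 (0.89 for both) and Nck1 like Fbxo9 and Ermard (0.83 for both). Unc5a was most like another member, Nck2 (0.95), followed by Gm6958 (0.94).

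The 4 members that fell lie on 4 chromosomes. Over all tested genes, 16.8% were called in VLDLR_KO against WT. Within 1 Mb of Slit1, 5 of 29 tested genes rose and 4 fell in that comparison. Slit1 lies 14.3 Mb from Vldlr on chromosome 19, and the part of position in these calls was not tested. Within 1 Mb of Nck2 1 of 12 rose and 1 fell, within 1 Mb of Unc5a 1 of 35 rose and 1 fell, and of the 11 tested neighbours of Srgap1 none was called. Neighbours were taken by annotated span, so the 12 of Nck2 include Rcor3, not called, whose annotated start is at 202723.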

How the data were processed

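RNA of 15 libraries was prepared with a SMARTER kit and read in pairs on a BGISEQ-500, per the labels' protocols. The submitters' processing notes name HISAT, Bowtie2 and the build GRCm38.p6. Which program made the counts, and from which annotation, is not given in the sources used here. The deposited values are estimated counts per gene and transcript (92.6% of gene counts whole to within 1e-06) and FPKM, a unit inferred from the values because the file headers give none. Log2 fold changes and DESeq2 q-values were copied from the authors' deposited table, whose lettered sets were matched to genotype and code form by their mean counts, another kind of deposited value, which equal the means of those libraries.

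Counts were rounded and tested with edgeR 4.0.16 in R 4.3.3 (quasi-likelihood, TMM scaling, filterByExpr with a minimum count of 10, Benjamini-Hochberg adjustment over 11668 genes). The model held genotype and code form over all 15 libraries, and a second model held their interaction. Transcripts were treated likewise (30096 of 54327 tested). A call is an adjusted p under 0.05, differences are log2 with SE, and CPM are counts per 1000000 of the TMM-scaled library size. Alternatives were DESeq2 1.42.0, limma 3.58.1 on log2(FPKM + 0.1), RLE scaling, no filter, no code form, a replicate block, each code form alone and libraries left out. The procedure was tested on simulated data.

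Replicate numbers follow accession order. Replicates differed by more than counting error (chi-square over its degrees of freedom, 5.7 to 246). Intervals and floors cover counting error only. The members and gene lists were chosen with earlier results of these data known. All 10 members were named, with up to 4 called pathway genes per direction and comparison (smallest adjusted p) and the 2 genes most like each tested member. Sdc3, Sdc4 and Evl in VLDLR_KO against WT, Sdc2 there, and the near-0 receptors were named after their values were seen. One group of pathway genes is not reported here by name.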

Additional observations from a re-analysis of the deposited data

Results flagged for a closer look

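In 4 of the 28 groups of 5 libraries with at least 2 libraries above 0, 1 library stood apart by the size of its gap to the nearest value. Chance would give about 1 in 20 groups if the 5 values came from 1 normally distributed population. CPM of low counts need not be normally distributed, each group here mixes the 2 code forms and the groups share libraries, so that rate need not hold. Robo1 was at 2.6 CPM in WT replicate 3 (next 0.635 CPM) and at 1.29 CPM in ROBO4_KO replicate 2 (next 0.333 CPM), the libraries with the highest stromal sums. Unc5b was at 10 CPM in ROBO4_KO replicate 2 (next 3.89 CPM). Nck1 was at 38.7 CPM in ROBO4_KO replicate 3 (next 33.5 CPM). Robo4 was at 0.0558 CPM in VLDLR_KO replicate 4, which is 1 count, with 0 in the other libraries of that genotype, so that its gap is the whole range by construction.

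The Slit1 difference between VLDLR_KO and WT was 2.24 log2 units smaller in size with the digit before B than with the digit after it (interaction in edgeR, adjusted p = 0.00933).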

How the results depend on the processing

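Over 48 pairs of member and comparison, 1074 values were computed under alternatives. Of these 994 kept their direction and side of the threshold, 23 lost a call, 1 gained one and 56 changed sign, 0 of them among called differences. The calls of Slit1, Nck2 and Unc5a in VLDLR_KO against WT held in all 25 alternatives and that of Srgap1 in all 24 that could test it. Among those log2 differences Slit1 ranged from -4.06 to -1.81, Nck2 from -1.78 to -1.29, Unc5a from -3.81 to -1.74 and Srgap1 from -3.40 to -0.81, leaving out the digit before B alone, where both VLDLR_KO libraries had 0 counts and no fold is given. The cause of the changes below was not tested.

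Without the code form, 1086 genes were called for VLDLR_KO against WT, 39 for ROBO4_KO against WT and 888 (2 members) for VLDLR_KO against ROBO4_KO, and among transcripts 646 (1 of a member) and 584 (1). ROBO4_KO against WT gave 75 genes in the reported fit, 172 with DESeq2, 20 with the digit before B alone, 188 with the digit after B alone, 44 without WT replicates 1 and 2, 49 without WT replicate 3 and ROBO4_KO replicate 2, and 55 to 125 leaving out 1 library. Without WT replicate 3 and ROBO4_KO replicate 2, VLDLR_KO against ROBO4_KO gave 1157 and the interaction of VLDLR_KO with the code form 796. That interaction gave 598 (without WT replicate 2) to 5090 (without VLDLR_KO replicate 1), against 1777. The ROBO4_KO interaction gave 88 with DESeq2. With no low-count filter, 650 transcripts (1 of a member) were called for VLDLR_KO against ROBO4_KO, and leaving out 1 library gave 1 to 2 of members.

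Deviations from the mean of each genotype and code form had r over 0.1 in 4 of 12 same-code pairs (-0.464 to 0.343). Those means rest on 2 or 3 libraries, so deviations cancel within a group and the r values depend on each other. Whether the code numbers pair the samples cannot be decided from them. With the replicate block, 1141 genes were called for VLDLR_KO against ROBO4_KO and Srgap1 lost that call (adjusted p = 0.092).

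Uncalled differences changed sign as follows. Srgap3 in VLDLR_KO against WT was -0.26 when the code form was dropped, -0.19 with the digit before B, -0.01 with limma, -0.19 without WT replicates 1 and 2, and -0.11 to 0.12 leaving out 1 library. Unc5b was 0.21 with the digit after B, and 0.07 against ROBO4_KO. In ROBO4_KO against WT, Srgap2 was 0.09 with the digit before B, 0.03 without WT replicates 1 and 2 and -0.07 to 0.01 leaving out 1 library. Srgap3 there was -0.07 when the code form was dropped, and -0.01 both with the digit before B and without WT replicates 1 and 2. Unc5a there was 0.02 with the digit after B. Unc5b there was -0.07 without the code form, -0.07 with the replicate block, -0.19 without WT replicates 1 and 2, -0.18 without WT replicate 3 and ROBO4_KO replicate 2, and -0.35 to 0.24 leaving out 1 library. For the code form, Nck1 was 0.05 with limma, 0.01 without WT replicate 3 and ROBO4_KO replicate 2 and -0.03 to 0.01 leaving out 1 library, with Srgap2 at -0.05 to 0.04 and Nck2 at -0.09 to 0.02. In the VLDLR_KO interaction, Srgap2 was -0.17 and Nck1 -0.0021 with limma, and Srgap2 -0.18 to 0.22 leaving out 1 library. In the ROBO4_KO interaction, leaving out 1 library gave -0.24 to 0.86 for Srgap1, -0.13 to 0.01 for Nck1, -0.11 to 0.09 for Nck2 and -0.85 to 0.52 for Unc5b.

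Depth limits Robo4, Robo1, Srgap1 and Unc5a most: in the library with the smallest scaled size 3 counts are 0.178 CPM.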
